A study of Mus musculus with 2 samples.

Results

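The 8 genes described here encode receptors that restrain or trigger natural killer (NK) cells: the nectin receptors Tigit, Cd96, Cd226 and Crtam, and the checkpoint receptors Lag3, Havcr2, Pdcd1 and Cd160. They were chosen by name, 8 of the 31053 genes in the deposited tables, and are described in brain NK cells and in a smaller population with markers of type 1 innate lymphoid cells (ILC1). The cells had been sorted from the brains of 8-month-old female mice, 3xTg-AD animals (written 3XTg-AD in the labels, a transgenic Alzheimer's disease model) in 1 library and wildtype C57BL/6 animals in 1 library. Neither library had been treated. Neither the number of mice pooled in each library nor the genetic background of the 3xTg-AD mice is given in the sources used here, so the transgenes, the background, the animals and the preparation cannot be told apart. Transcripts were read from their 5′ end with 10x Genomics Chromium chemistry and counted as unique molecular identifiers (UMIs).

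The nectin receptors share their ligands. CD155 (encoded by Pvr) and CD112 (Nectin2) on a target or neighbouring cell bind TIGIT, which inhibits NK cells, and CD226, which activates them, so that TIGIT, CD96 and CD226 compete for the same partner. CRTAM binds the nectin-like molecule CADM1, while LAG3, TIM-3 (Havcr2) and PD-1 (Pdcd1) are receptors best known from chronically stimulated T cells, and CD160 binds HVEM (Tnfrsf14) and class I molecules.

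Most of the 8 transcripts were sparse in brain NK cells and denser in the ILC1-like population. Tigit, Cd226 and Cd160 stood above NK cells in ILC1-like barcodes of both libraries. Pdcd1 gave no UMI in NK barcodes of either library and Havcr2 gave 4, so these transcripts were near absent there. In ILC1-like barcodes Pdcd1 gave 3 UMIs and Havcr2 gave 2, all in the wildtype library. Between the libraries, Tigit was lower in 3xTg-AD NK barcodes and Cd160 was higher in 3xTg-AD ILC1-like barcodes. The first of these differences was under 1.5-fold in 5 of 15 other processing settings, among them one that left out 2 clusters of barcodes almost wholly from the wildtype library. The second was a ratio of 1.65 (0.954 to 2.90) with all barcodes cut to the same depth. With ILC1-like barcodes chosen after that cut it was 1.53 (0.922 to 2.52). Both rest on under 100 UMIs and their intervals include 1.

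Depth was close in the libraries, at 5468455 UMIs over 1695 barcodes in 3xTg-AD (median 2846 per barcode) and 5559995 UMIs over 1709 barcodes in wildtype (median 2930). After barcodes with few genes, high mitochondrial share or a doublet call were left out, 1663 barcodes of the 3xTg-AD library and 1649 of the wildtype library remained. The libraries shared 1 barcode sequence. Innate lymphocytes with at least 3 summed UMIs of Itga1, Cxcr6, Inpp4b, Gzmc and Tnfsf10 are called ILC1-like, and the rest are called NK. There were 79 ILC1-like and 1519 NK barcodes in the 3xTg-AD library, and 102 ILC1-like and 1493 NK barcodes in the wildtype library. ILC1-like barcodes were also deeper, with medians of 5559 UMIs against 2801 UMIs for NK in 3xTg-AD and 5374 UMIs against 2881 UMIs in wildtype. The class is a range and not a sharp type: 31 3xTg-AD and 40 wildtype barcodes held 2 UMIs of these genes, just under the limit, and 46 and 42 held 3 to 5.

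Markers were checked first. Ncr1, which encodes the NK receptor NKp46, was found in 98.7% of 3xTg-AD and 88.2% of wildtype ILC1-like barcodes, and in 98.0% and 94.6% of NK barcodes. Gzma, the granule protease granzyme A, had medians of 0 UMIs in 3xTg-AD and 1.0 UMIs in wildtype ILC1-like barcodes, against a median of 54.0 UMIs per NK barcode in both libraries. Eomes, a transcription factor that liver ILC1 lack, was detected in 55.7% of 3xTg-AD and 48.0% of wildtype ILC1-like barcodes. In the shallower NK barcodes it was in 45.2% and 42.1%. Scaled to all UMIs of the class, it was 0.831 times (0.662 to 1.03) its NK level in 3xTg-AD and 0.850 times (0.691 to 1.04) in wildtype. The ILC1-like population thus carried this NK gene near its NK level. The defining T cell marker Cd3e was at 0 in both classes, since any barcode with a Cd3e UMI was set apart as T-like. The 3xTg-AD and wildtype ILC1-like barcodes differed in make-up, with Gzmc (granzyme C) in 29.1% and 52.9% of them and at 305 and 1388 CPM (UMIs of the gene scaled to the UMIs of the class, as set out below).

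Each level below is a sum of a gene's UMIs over the barcodes of a class, divided by all UMIs of the class and given per 1000000 (CPM), with an exact Poisson 95% interval. Ratios are of CPM, with exact conditional binomial 95% intervals. Each group has 1 library, so there is no replicate, no test was made, and all intervals cover counting error only. A gene is said to be called where its ratio was at least 1.5-fold from 1 and both sums together held at least 100 UMIs. Shares of barcodes with a UMI are given after every barcode was thinned to 1400 UMIs, which left out 74 3xTg-AD and 114 wildtype NK barcodes and 0 and 3 ILC1-like barcodes as too shallow.

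Tigit and Cd160, the members with the most UMIs in both classes, carry the differences that follow, so the 250 bases before their transcription starts are shown from RefSeq on GRCm38.p6, 5′ to 3′ along the gene. Tigit lies on chromosome 16 at 43648867 to 43664146 on the minus strand, and its window spans chr16:43664185-43664434, before the first base of the RefSeq start. Cd160 lies on chromosome 3 at 96798763 to 96829351 on the minus strand and has 2 starts, with windows at chr3:96829352-96829601 and chr3:96814522-96814771, the second within the span of the gene. No window overlaps an exon of its own gene annotated in GENCODE M21, and exons of other genes were not checked. Capitals mark matches, on either strand, to the RUNX core TGTGGT or the T-box core GGTGTG, motifs of transcription factor families that include RUNX3, T-bet and EOMES in NK cells.
Tigit: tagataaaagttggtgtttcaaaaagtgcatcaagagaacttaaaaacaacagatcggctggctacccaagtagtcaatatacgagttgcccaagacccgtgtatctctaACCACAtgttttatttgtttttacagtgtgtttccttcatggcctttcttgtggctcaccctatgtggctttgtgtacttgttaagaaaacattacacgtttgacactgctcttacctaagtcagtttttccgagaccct
Cd160 start 1: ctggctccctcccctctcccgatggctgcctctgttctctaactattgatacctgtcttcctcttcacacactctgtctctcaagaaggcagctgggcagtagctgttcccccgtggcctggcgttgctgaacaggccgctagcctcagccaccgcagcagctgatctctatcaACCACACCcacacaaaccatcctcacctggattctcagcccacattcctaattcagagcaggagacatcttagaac
Cd160 start 2: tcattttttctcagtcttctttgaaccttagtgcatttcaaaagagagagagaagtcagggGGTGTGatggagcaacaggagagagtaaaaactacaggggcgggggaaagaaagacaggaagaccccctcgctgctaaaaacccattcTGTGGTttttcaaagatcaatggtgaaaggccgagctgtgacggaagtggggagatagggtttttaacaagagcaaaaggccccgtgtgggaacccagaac

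The Tigit window held 1 RUNX core on the opposite strand, 140 bases before the start. Each Cd160 window held both cores, and at the first start they overlap in the run ACCACACC. Over 32851 promoters of the same length, 14.0% held the RUNX core and 16.3% the T-box core. The AP-1 motif TGANTCA, found in 6.75% of promoters, had no match in these windows. Of the 8 members, 5 have a promoter entry in the table used.

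Among the nectin receptors, Tigit had the largest ILC1-like over NK ratio by CPM. In ILC1-like barcodes it was at 292 CPM (244 to 346) in 3xTg-AD and 290 CPM (249 to 337) in wildtype. In NK barcodes it was at 45.0 CPM (39.1 to 51.5) in 3xTg-AD and 72.5 CPM (65.0 to 80.7) in wildtype. The ILC1-like levels of the libraries lay on top of each other and far above both NK levels, while the NK intervals did not overlap. ILC1-like over NK, the ratio was 6.49 (5.18 to 8.10) in 3xTg-AD and 4.0 (3.32 to 4.82) in wildtype. With ILC1-like barcodes taken from thinned counts instead, which left 17 of them in 3xTg-AD and 38 in wildtype, it was 2.70 (1.55 to 4.39) and 3.25 (2.46 to 4.25), below Cd226 at 3.45 (1.90 to 5.82) in 3xTg-AD. After thinning, 35.4% (25 to 47.0) of 79 3xTg-AD and 32.3% (23.3 to 42.5) of 99 wildtype ILC1-like barcodes held a Tigit UMI, against 5.19% (4.10 to 6.46) of 1445 3xTg-AD and 7.25% (5.94 to 8.75) of 1379 wildtype NK barcodes. Unthinned shares were 69.6% and 63.7% in ILC1-like barcodes, and 10.3% and 14.6% in NK barcodes, of 3xTg-AD and wildtype.

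Cd226, the activating receptor, was at 150 CPM (117 to 190) in 3xTg-AD and 122 CPM (95.5 to 153) in wildtype ILC1-like barcodes. Its NK levels were 37.5 CPM (32.2 to 43.5) in 3xTg-AD and 45.1 CPM (39.2 to 51.6) in wildtype. The classes were apart in both libraries, with ILC1-like over NK ratios of 4.01 (2.98 to 5.33) in 3xTg-AD and 2.70 (2.04 to 3.54) in wildtype. Thinned shares were 13.9% and 16.2% of ILC1-like and 4.15% and 5.51% of NK barcodes, in 3xTg-AD and wildtype, and unthinned shares were 48.1% and 50%, and 9.87% and 11.5%.

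Cd96, a nectin receptor with reported inhibitory and activating roles, differed less between the classes. It was at 46.4 CPM (28.7 to 70.9) in 3xTg-AD and 76.8 CPM (56.2 to 102) in wildtype ILC1-like barcodes, from 21 and 46 UMIs. In NK barcodes it was at 26.0 CPM (21.6 to 31.0) in 3xTg-AD and 32.0 CPM (27.0 to 37.5) in wildtype. The intervals of the 3xTg-AD classes overlap. The ILC1-like over NK ratio was 1.78 (1.07 to 2.85) in 3xTg-AD, where sums of thinned barcodes gave 0.90, and 2.40 (1.69 to 3.36) in wildtype.

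Crtam, which binds CADM1, was at 57.4 CPM (37.5 to 84.2) in 3xTg-AD and 23.4 CPM (12.8 to 39.2) in wildtype ILC1-like barcodes. In NK barcodes it was low, at 12.6 CPM (9.57 to 16.2) from 59 UMIs in 3xTg-AD and 10.7 CPM (7.96 to 14.1) from 50 UMIs in wildtype. Of the 26 UMIs of 3xTg-AD ILC1-like barcodes, 17 lay in 1 barcode. Thinned shares were 1.27% of 79 3xTg-AD and 4.04% of 99 wildtype ILC1-like barcodes, opposite in order to the CPM, so no order is read from them.

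Of the checkpoint receptors, Cd160 had the most UMIs. It was at 312 CPM (262 to 367) in 3xTg-AD and 174 CPM (142 to 210) in wildtype ILC1-like barcodes, and at 81.8 CPM (73.9 to 90.4) in 3xTg-AD and 68.7 CPM (61.3 to 76.6) in wildtype NK barcodes. All 4 levels were apart except those of NK, whose intervals overlap. ILC1-like over NK, the ratio was 3.81 (3.12 to 4.63) in 3xTg-AD and 2.53 (2.01 to 3.16) in wildtype. Thinned shares were 30.4% (20.5 to 41.8) and 21.2% (13.6 to 30.6) of ILC1-like barcodes, and 9.34% (7.89 to 11) and 9.43% (7.94 to 11.1) of NK barcodes, in 3xTg-AD and wildtype. Without thinning they were 72.2% and 48.0%, and 17.5% and 15.5%.

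Lag3, an inhibitory receptor that binds class II molecules and FGL1, was at 30.9 CPM (16.9 to 51.9) in 3xTg-AD and 20 CPM (10.3 to 35.0) in wildtype ILC1-like barcodes, from 14 and 12 UMIs. In NK barcodes it gave 36 UMIs in 3xTg-AD and 29 UMIs in wildtype, or 7.67 CPM (5.37 to 10.6) and 6.22 CPM (4.17 to 8.94). By CPM, both ILC1-like levels lie above both NK levels, with no overlap except between wildtype ILC1-like and 3xTg-AD NK barcodes. Thinned shares were 1.27% (0.0320 to 6.85) of 3xTg-AD and 4.04% (1.11 to 10.0) of wildtype ILC1-like barcodes. In NK barcodes they were 0.830% (0.43 to 1.45) and 0.725% (0.348 to 1.33), so the intervals of the classes overlap in each library.

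Havcr2 was at 0 in 79 3xTg-AD ILC1-like barcodes, and its 2 UMIs in wildtype ILC1-like barcodes lay in 1 barcode that also held 21 UMIs of microglia markers. It was found in 3 NK barcodes of 3xTg-AD, with 4 UMIs in all, and in 0 of 1493 wildtype NK barcodes. Microglia-like barcodes of the same libraries carried it at 169 CPM (100 to 267) in 3xTg-AD and 148 CPM (30.4 to 431) in wildtype, in 13 of 28 and 3 of 6 barcodes. The Havcr2 transcript was therefore detectable with this chemistry. The same was not shown for Pdcd1, which had 1 UMI in 3xTg-AD microglia-like barcodes and 0 in T-like barcodes of both libraries. Pdcd1 was at 0 of 79 thinned 3xTg-AD ILC1-like barcodes, which allows a share of barcodes with a UMI of up to 3.80%, and its 3 UMIs in wildtype ILC1-like barcodes lay in 2 barcodes. It was at 0 of 1445 3xTg-AD and 0 of 1379 wildtype thinned NK barcodes, which allows shares of up to 0.208% and 0.218%. These limits, of 3 barcodes each, are on barcodes with a UMI at 1400 UMIs and do not limit the cells that express the gene.

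**Figure D1:**
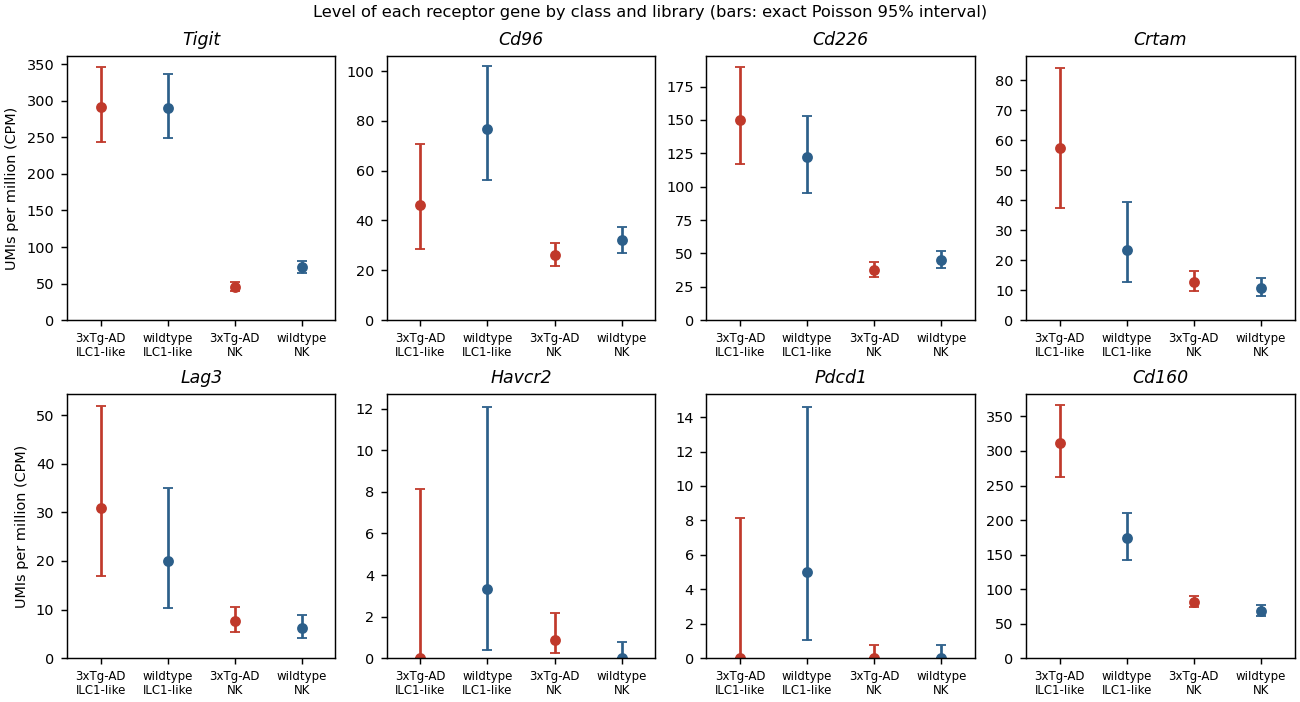
Level of each of the 8 genes in CPM, in 3xTg-AD and wildtype barcodes of the ILC1-like and NK classes, each from 1 library. Points are sums over barcodes and bars are exact Poisson 95% intervals, with a separate axis for each gene. Tigit sits near 290 CPM in both ILC1-like sums, and Havcr2 and Pdcd1 do not exceed 5.01 CPM.

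Free RNA can place UMIs in barcodes that do not express a gene, so the unthinned shares were set beside those of microglia-like barcodes. Crtam was in 2.70% of 3xTg-AD and 3.01% of wildtype NK barcodes, Lag3 in 2.04% and 1.81%, and Cd96 in 7.31% and 8.71%. In the 28 3xTg-AD microglia-like barcodes, which had a median of 3583 UMIs, Tigit, Cd226, Crtam, Lag3 and Pdcd1 were each in 3.57%, and Cd96 and Cd160 were in 7.14%. In the 6 wildtype ones, with a median of 3206 UMIs, Lag3 was in 16.7% and these other genes were in none. Ncr1 was also found in 46.4% and 33.3% of these barcodes, so NK cell RNA is present in them. The NK shares of Crtam and Lag3 are not above those of 3xTg-AD microglia-like barcodes, and the 3xTg-AD share of Cd96 is level with it, so these shares alone are not read as expression. The comparison is loose, since 3.57% is 1 barcode (0.0904 to 18.3), and 0 of 25 thinned 3xTg-AD microglia-like barcodes held Crtam or Lag3, which allows up to 12%. Tigit, Cd226 and Cd160 in NK barcodes, and all members but Havcr2 and Pdcd1 in ILC1-like barcodes, had unthinned shares above those of 3xTg-AD microglia-like barcodes, although ILC1-like barcodes are deeper.

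ILC1-like over NK, 4 members were called higher in 3xTg-AD, namely Tigit, Cd96, Cd226 and Cd160, where 7.65% of the 5684 genes tested were called higher. The same 4 were called higher in wildtype, against 7.13% of 5613 genes. Crtam and Lag3 had ratios of 4.57 and 4.03 in 3xTg-AD and 2.18 and 3.22 in wildtype, but under 100 UMIs. In 3xTg-AD the Crtam ratio was 1.79 (0.778 to 3.67) without the barcode with most Crtam UMIs in each class, and thinned sums gave 1.59 for Crtam and 1.22 for Lag3, from 2 and 1 ILC1-like UMIs. No member was called lower, against 28.8% of genes in 3xTg-AD and 22.3% in wildtype. The median log2 ratio of all genes tested was -0.28 in 3xTg-AD and -0.19 in wildtype, so most genes lay below their NK level on this scale.

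The separation followed the number of UMIs of the 5 defining genes below the limit as well. Tigit was at 38.3, 56.1, 218, 288 and 296 CPM in 3xTg-AD barcodes with 0, 1, 2, 3 to 5 and 6 or more UMIs of these genes, and at 64.8, 107, 187, 280 and 295 CPM in wildtype barcodes. Barcodes with 2 UMIs, which count as NK here, thus lay between those with 0 UMIs and the ILC1-like barcodes. Their Tigit intervals were 148 to 310 CPM in 3xTg-AD and 125 to 268 CPM in wildtype, against ILC1-like levels of 292 and 290 CPM. Cd160 followed the same order in 3xTg-AD up to 3 to 5 UMIs, at 77.6, 103, 162, 329 and 291 CPM. In wildtype it was at 61.4, 109, 155, 270 and 128 CPM. The libraries came apart in barcodes with 6 or more UMIs, where the Cd160 interval was 222 to 375 CPM in 33 3xTg-AD barcodes and 95.5 to 168 CPM in 60 wildtype barcodes. Cd226 was at 31.2 CPM in 3xTg-AD and 36.6 CPM in wildtype barcodes with 0 such UMIs, and at 93.4 and 97.1 CPM with 1. Median depth grew along the same groups, from 2764.5 to 6262 UMIs in 3xTg-AD and from 2838.5 to 6564.5 UMIs in wildtype, and its part was not tested.

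**Figure D2:**
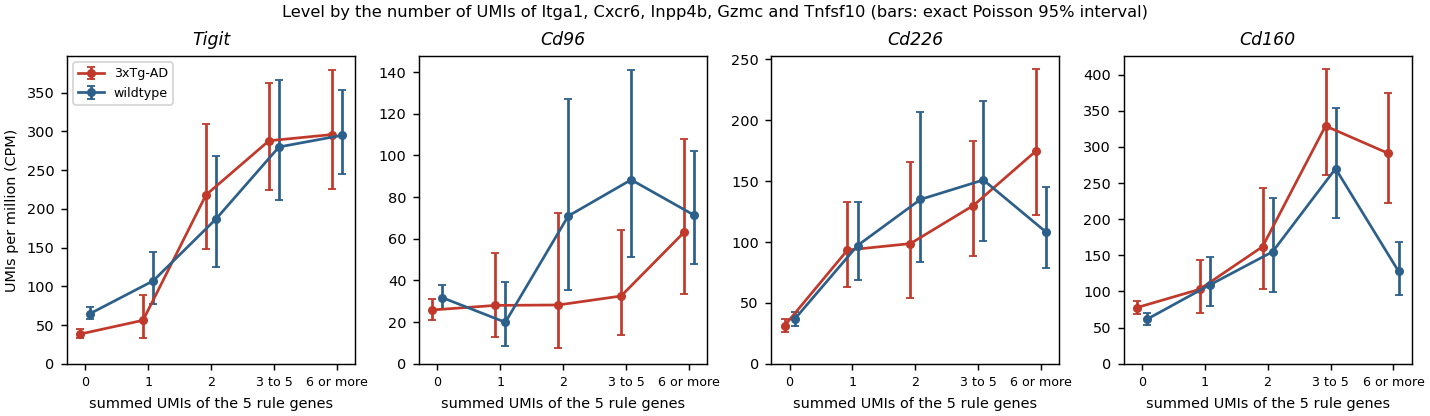
Level of Tigit, Cd96, Cd226 and Cd160 in CPM against the summed UMIs of the 5 genes that define ILC1-like barcodes, for the 3xTg-AD and wildtype libraries. Bars are exact Poisson 95% intervals and 3 or more UMIs count as ILC1-like. Tigit is near 290 CPM from 3 UMIs on in both libraries, while Cd160 with 6 or more UMIs is at 291 CPM in 3xTg-AD and 128 CPM in wildtype.

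ILC1-like barcodes were split by UMIs of Tmem176a or Tmem176b, membrane protein genes on the ILC1 marker list. With them there were 23 barcodes in 3xTg-AD and 25 in wildtype. Crtam had 0 UMIs in these barcodes of both libraries, and all of its 26 UMIs in 3xTg-AD and 14 UMIs in wildtype lay in the others. Lag3 was at 101 CPM (52.0 to 176) with and 6.00 CPM (0.727 to 21.7) without these genes in 3xTg-AD, and at 21.4 CPM (4.42 to 62.6) with and 19.6 CPM (8.96 to 37.2) without in wildtype. Its concentration in such barcodes was thus seen in the 3xTg-AD library, where 12 of its 14 UMIs lay in 6 barcodes. Tigit was lower in barcodes with these genes in 3xTg-AD, at 159 CPM (95.9 to 249) against 339 CPM (279 to 408) without them, and was at 257 CPM (180 to 356) and 301 CPM (253 to 355) in wildtype. Cd226 was at 210 CPM (136 to 309) with and 129 CPM (93.4 to 174) without in 3xTg-AD, and at 193 CPM (127 to 280) and 100 CPM (73.3 to 134) in wildtype.

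In NK barcodes, 3xTg-AD over wildtype, Tigit was called lower, 1 of the 5 members with at least 100 UMIs, where 2.38% of the 7237 genes tested were called lower and 3.72% higher. The Tigit ratio was 0.620 (0.52 to 0.739), from 211 and 338 UMIs. It stayed below 1 but fell short of a call at 0.686 (0.515 to 0.911) in thinned sums, 0.70 with ILC1-like taken from 5 UMIs, 0.723 with it taken from thinned counts, and 0.668 with classes set without clusters. Cd226 had a ratio of 0.832 (0.677 to 1.02) and Cd96 one of 0.813 (0.635 to 1.04), both below 1 with intervals that reach it. Crtam was at 1.17 (0.790 to 1.74), and Lag3, with fewer UMIs, at 1.23 (0.735 to 2.08). Cd160 had a ratio of 1.19 (1.02 to 1.39), short of a call, and its thinned shares of 9.34% in 3xTg-AD and 9.43% in wildtype did not differ beyond counting error. The Tigit share of thinned NK barcodes was 0.716 times as large in 3xTg-AD. Few NK barcodes held several Tigit UMIs, 12 with 3 or more in 3xTg-AD and 30 in wildtype.

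The libraries filled partly different clusters of barcodes, and the Tigit level differed between clusters. Of 14 clusters, the one led by Klra1, Gadd45g and Gzmb held 35 3xTg-AD and 466 wildtype barcodes, and the one led by the interferon genes Cxcl10, Rsad2 and Ifit3 held 2 and 46. The NK barcodes of the Klra1-led cluster carried Tigit at 89.1 CPM in 3xTg-AD (11 UMIs) and 99.7 CPM in wildtype (157 UMIs), and those of the interferon-led cluster at 218 CPM (26 UMIs) in wildtype. Without these clusters, each over 90% from 1 library, the Tigit ratio in NK barcodes was 0.839 (0.676 to 1.04) and no member was called. A cluster mostly of 1 library may be that library and not a cell type.

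Within the other clusters the Tigit levels went both ways. In the Cd27-led cluster NK barcodes were at 40.1 CPM in 3xTg-AD (22 UMIs) and 81.5 CPM in wildtype (58 UMIs). In the cluster led by Klra4, Klra8 and Klrc2 they were at 77.5 CPM in 3xTg-AD (45 UMIs) and 10.3 CPM in wildtype (1 UMI, 38 barcodes). The Cxcr6-led cluster, which held 78 of the 79 3xTg-AD and 94 of the 102 wildtype ILC1-like barcodes, also held NK barcodes under the limit, with Tigit at 225 CPM in 60 3xTg-AD and 213 CPM in 95 wildtype barcodes. Tigit was low, at 14.9 CPM in 3xTg-AD and 7.15 CPM in wildtype, in the cluster led by Ly6c2, Cma1 and Klrg1. The clustering used 2000 variable genes picked from all genes, with the members not set aside. Which members were among them was not recorded, so the levels are given as a description.

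Cd160 was placed otherwise. It was at 154 CPM in 3xTg-AD and 152 CPM in wildtype in the cluster led by Nr4a1, Ccl4 and Egr1, which held 138 3xTg-AD and 39 wildtype NK barcodes. In the Klra1-led cluster it was at 56.7 CPM in 3xTg-AD (7 UMIs) and 26.0 CPM in wildtype (41 UMIs), and it had 0 UMIs in 40 wildtype NK barcodes of the interferon-led cluster. Without these 2 clusters its NK ratio was 0.878 (0.750 to 1.03), on the other side of 1. Of the 59 Crtam UMIs in 3xTg-AD NK barcodes, 25 lay in the Nr4a1-led cluster, at 52.6 CPM, where wildtype NK barcodes had 0.

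In ILC1-like barcodes, 3xTg-AD over wildtype, Cd160 was called higher, 1 of the 3 members with enough UMIs, where 2.69% of the 1375 genes tested were called higher and 3.13% lower. Its ratio was 1.79 (1.38 to 2.34), from 141 and 104 UMIs in 57 of 79 and 49 of 102 barcodes. With Gzmc UMIs, Cd160 was at 298 CPM (215 to 403) in 3xTg-AD and 157 CPM (119 to 202) in wildtype barcodes. Without them it was at 317 CPM (258 to 386) in 3xTg-AD and 201 CPM (147 to 268) in wildtype. The 3xTg-AD level was higher on either side of this split, with intervals that overlap in barcodes without Gzmc. Tigit had a ratio of 1.0 (0.795 to 1.27) and Cd226 one of 1.23 (0.873 to 1.74). Cd96 was at 0.604 (0.343 to 1.03) and Lag3 at 1.54 (0.663 to 3.66), both under the UMI minimum. Crtam was at 2.46 (1.24 to 5.09), and at 1.0 once the barcode with most Crtam UMIs was left out in each library.

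**Figure D3:**
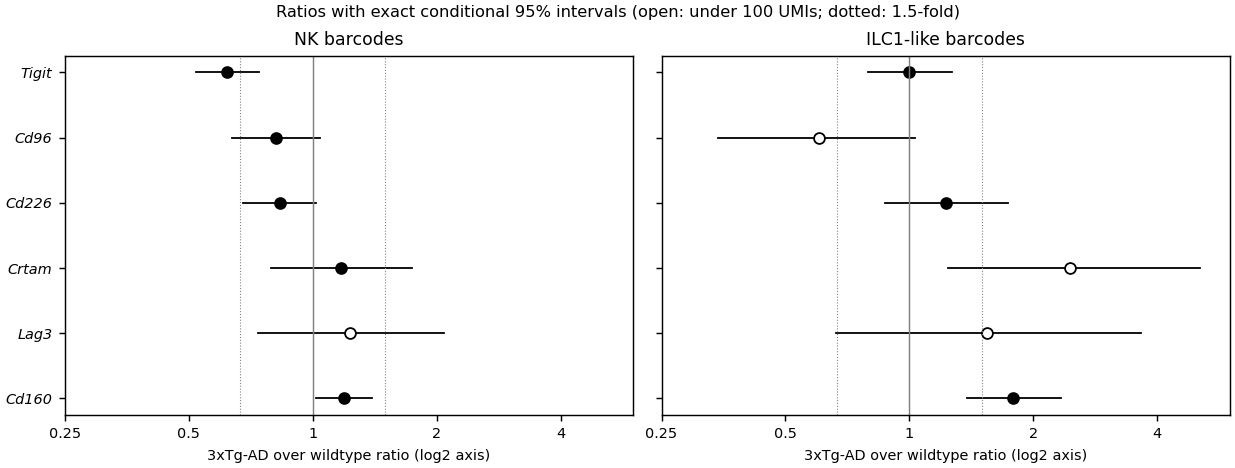
Ratio of CPM, 3xTg-AD over wildtype, for 6 members in NK and ILC1-like barcodes on a log2 axis, with exact conditional 95% intervals. Open points rest on under 100 UMIs and dotted lines mark 1.5-fold. Tigit lies at 0.620 in NK and 1.0 in ILC1-like barcodes, and Cd160 at 1.19 and 1.79.

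Cd27 marks less mature and Klrg1 more mature mouse NK cells, and the receptors were set against both in thinned NK barcodes. The NK class includes 60 3xTg-AD and 95 wildtype barcodes of the Cxcr6-led cluster. These carried Tigit at 225 and 213 CPM and Cd160 at 197 and 192 CPM, and their part in the shares below was not tested. Tigit was in 13% of 46 3xTg-AD and 18.6% of 70 wildtype barcodes with Cd27 alone. It was in 5.59% of 948 and 8.16% of 833 with neither, and in 3.59% of 446 and 4.03% of 471 with Klrg1 alone, again 3xTg-AD and wildtype. Of these 3 groups the share was highest with Cd27 alone and lowest with Klrg1 alone in each library, and these intervals do not overlap in wildtype, at 10.3 to 29.7 and 2.45 to 6.23. Barcodes with both genes, 5 in each library, were too few to place, with Tigit in 0 and Cd160 in 0 in 3xTg-AD and 1 in wildtype. Cd160 followed the same order over the 3 groups, at 13%, 10.9% and 5.83% in 3xTg-AD and 17.1%, 9.72% and 7.64% in wildtype. Its intervals with Cd27 alone and Klrg1 alone overlap, at 4.94 to 26.3 and 3.84 to 8.43 in 3xTg-AD and 9.18 to 28.0 and 5.41 to 10.4 in wildtype. Crtam was in 1 of 446 3xTg-AD and 2 of 471 wildtype barcodes with Klrg1 alone, against 17 of 948 and 16 of 833 with neither. Cd96 did not follow this order, at 3.81% in 3xTg-AD and 6.37% in wildtype barcodes with Klrg1 alone, and 4.01% and 3.84% with neither. Cd226 followed it in wildtype alone, at 7.14%, 6.00% and 4.46%, and was at 2.17%, 4.75% and 3.14% in 3xTg-AD. Its shares with Cd27 alone rest on 5 wildtype barcodes and 1 3xTg-AD barcode.

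**Figure D4:**
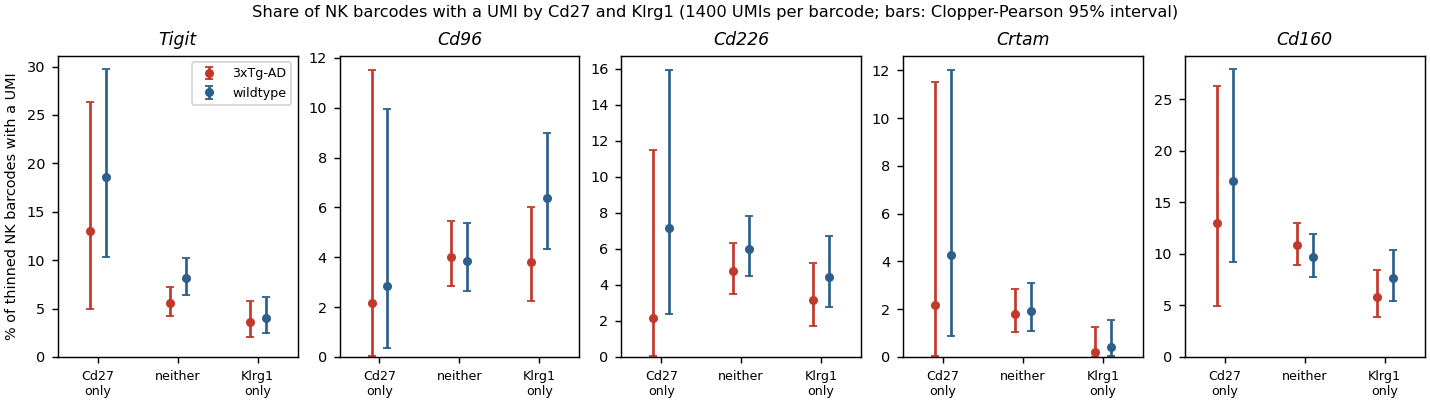
Percent of thinned NK barcodes (1400 UMIs each) with a UMI of the gene, among barcodes with Cd27 alone, neither gene, or Klrg1 alone, in 3xTg-AD and wildtype. Bars are Clopper-Pearson 95% intervals. Of the 3 groups, Tigit is lowest with Klrg1 alone in both libraries, at 3.59% in 3xTg-AD and 4.03% in wildtype.

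Thinned to 1400 UMIs, single barcodes seldom held UMIs of several of these receptors. At full depth, Tigit was in 69.6% and Cd160 in 72.2% of 3xTg-AD ILC1-like barcodes, and in 63.7% and 48.0% in wildtype. Some ILC1-like barcodes of each library thus held both before thinning, and their number was not counted. In ILC1-like barcodes thinned to 1400 UMIs, 31.6% in 3xTg-AD and 38.4% in wildtype had no UMI of the 8 genes, and 15.2% and 16.2% had UMIs of 2 of them. Of NK barcodes, 78.4% in 3xTg-AD and 74.8% in wildtype had none, and 2.63% and 3.41% had 2. Tigit and Cd160 were found together in 12 NK barcodes of 3xTg-AD where the product of their shares gave 7.01, and in 13 of wildtype where it gave 9.43. Cd226 and Cd160 were together in 10 3xTg-AD barcodes against 5.61 expected and in 12 wildtype barcodes against 7.16 expected. All 4 of these counts exceed their expected number, at 1.38 to 1.78 times, but each interval includes 1.

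Tigit and Cd226, which compete for CD155, were together in 5 3xTg-AD NK barcodes against 3.11 expected (1.61 times, 0.521 to 3.75) and in 2 wildtype NK barcodes against 5.51 expected (0.363 times, 0.0439 to 1.31). Pearson correlations of log1p thinned counts were 0.03 over 1445 3xTg-AD and -0.04 over 1379 wildtype NK barcodes for this pair, and 0.06 and 0.03 for Tigit and Cd160. In ILC1-like barcodes Tigit and Cd160 were together in 6 of 79 in 3xTg-AD against 8.51 expected, and in 4 of 99 in wildtype against 6.79 expected. The barcodes of a library share their preparation and chemistry, and with counts this sparse such weak correlations are no finding. For the 6 pairs with at least 2 NK barcodes expected in each library, all intervals of observed over expected include 1. Over NK and ILC1-like barcodes together, which mixes classes of different levels, Cd96 and Cd226 were at 2.55 times (1.02 to 5.25) in 3xTg-AD and 1.30 times (0.478 to 2.84) in wildtype. Tigit and Cd96 were at 1.0 times (0.273 to 2.57) in 3xTg-AD and 2.12 times (1.16 to 3.55) in wildtype.

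**Figure D5:**
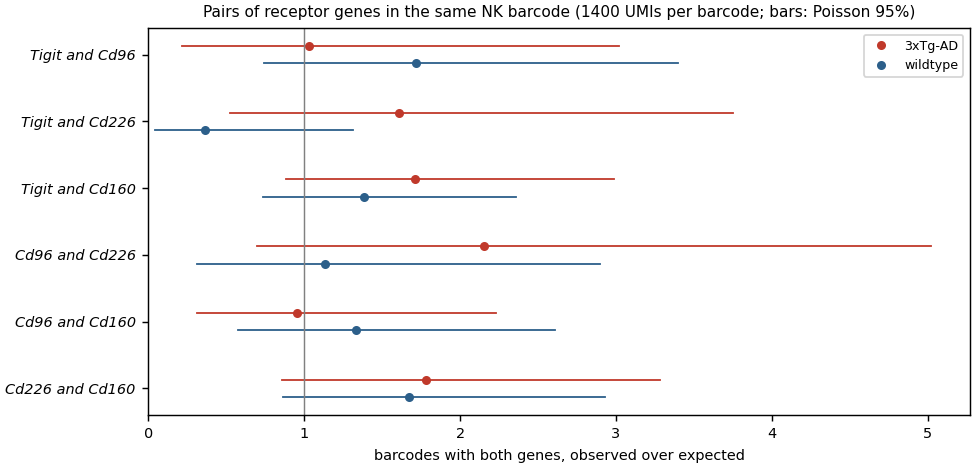
Thinned NK barcodes with UMIs of both genes, observed over the number expected from the product of the shares, for the 6 pairs with at least 2 expected barcodes in each library, in 3xTg-AD and wildtype. Bars are Poisson 95% intervals of the observed count. All of them include 1.

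The genes most like each member were ranked by the mean of the within-library Pearson correlation of log1p thinned counts over 1524 3xTg-AD and 1478 wildtype NK and ILC1-like barcodes, among 3370 genes. For Tigit they were Shisa5, Cd7 and Rpl13, at means of 0.18, 0.17 and 0.17. For Cd160 they were the chemokine gene Xcl1, Cd7 and Thy1, at 0.19, 0.19 and 0.16, and for Cd226 Ly6e, Thy1 and Cd7, at 0.14, 0.12 and 0.11. For Crtam they were Tnfrsf9 (the costimulatory receptor 4-1BB), Xcl1 and Ikbkb, at 0.12, 0.10 and 0.08, with Tnfrsf9 at 0.19 in 3xTg-AD and 0.04 in wildtype. For Cd96 they were Dctn2, Mysm1 and H2-Q6, at 0.08 or less. Cd7 appears for Tigit, Cd226 and Cd160, which were called higher in ILC1-like barcodes, and both classes enter this ranking together.

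The ligands of these receptors were nearly all unmeasured in NK barcodes themselves. Pvr had 1 UMI in 3xTg-AD and 9 UMIs in wildtype, and Nectin1, Nectin2 and Nectin4 had 0 in both. Of the 16 listed genes, 3 reached 100 UMIs and none was called in either direction. These were Lgals3, a LAG3 ligand, at 0.688 (0.618 to 0.766), 3xTg-AD over wildtype, Lgals9, a TIM-3 ligand, at 1.08 (0.982 to 1.19), and Hmgb1 at 1.02 (0.973 to 1.08). ILC1-like over NK, Lgals3 was at 747 CPM and 124 CPM in 3xTg-AD, a ratio of 6.03, and at 841 CPM and 180 CPM in wildtype, a ratio of 4.67.

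Of 21 other checkpoint and costimulatory receptor genes, 11 were measured in NK barcodes, 1 was called higher and 1 lower, 3xTg-AD over wildtype. Entpd1, the ectonucleotidase CD39, was higher at 88.4 CPM in 3xTg-AD and 40.1 CPM in wildtype, a ratio of 2.20 (1.85 to 2.63). It is also a leading gene of a cluster with 450 3xTg-AD and 92 wildtype NK barcodes, whose part in this ratio was not tested. Cd28, a costimulatory receptor, was lower at 11.9 CPM and 24.7 CPM, a ratio of 0.484 (0.345 to 0.671). Adora2a, an adenosine receptor, had a ratio of 1.40 (1.24 to 1.57), and Tnfrsf9 one of 1.38 (1.18 to 1.60), both short of a call. The list median log2 ratio was -0.03, beside 0.06 for all genes tested.

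Of 24 signalling genes downstream of such receptors, 23 were measured and none was called. Their largest differences were those of Ptpn6, the phosphatase SHP-1, at 1.35 (1.21 to 1.51), of the adaptor Grb2 at 0.743 (0.662 to 0.833), of the kinase Fyn at 0.79 (0.720 to 0.865), and of Arrb2 at 0.809 (0.738 to 0.888). The list median was 0.11. Of 21 transcription factor genes, 18 were measured. Nr4a1, induced by receptor signalling, was called higher at 1.75 (1.42 to 2.16). It leads the cluster with 138 3xTg-AD and 39 wildtype NK barcodes, whose part in this ratio was not tested. Id2 was at 0.693 (0.65 to 0.739) and Maf at 0.703 (0.516 to 0.954), both short of a call, and the list median was 0.10. In ILC1-like barcodes fewer of these genes had 100 UMIs, 10 of the signalling genes, 4 of the transcription factors and 3 each of the ligands and other receptors. None was called higher, 3xTg-AD over wildtype, and Grb2, at 0.662 (0.436 to 0.99), was among those called lower. The list medians there were -0.21 for ligands, 0.03 for other receptors, -0.01 for signalling genes and 0.03 for transcription factors, beside -0.01 for all genes tested.

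Between the classes, ILC1-like over NK, 1 of 10 measured other receptors was called higher and 6 lower in 3xTg-AD, and 2 of 11 higher and 4 lower in wildtype. Over all genes tested, 7.65% were called higher and 28.8% lower in 3xTg-AD, and 7.13% and 22.3% in wildtype. Tnfrsf9 was among the higher ones in both, at 194 CPM and 88.2 CPM in 3xTg-AD ILC1-like and NK barcodes and 190 CPM and 64.2 CPM in wildtype, ratios of 2.20 and 2.97. Klrg1, an inhibitory receptor of mature NK cells, was the lowest, at 4.42 CPM and 358 CPM in 3xTg-AD and 36.7 CPM and 400 CPM in wildtype. Of the transcription factors, 3 were called higher and 9 lower among 14 in 3xTg-AD, and 1 higher and 7 lower among 14 in wildtype. Tox, a factor linked to innate lymphoid development, was higher in both, at ratios of 2.72 (1.77 to 4.07) and 2.57 (1.69 to 3.82), and Tbx21, which encodes T-bet, lower in both, at 0.174 (0.116 to 0.25) and 0.276 (0.202 to 0.37). No signalling gene of 23 was called higher, and 8 in 3xTg-AD and 7 in wildtype were called lower, not far from the 28.8% and 22.3% of all genes.

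Genes of other cell types differed between the libraries as well. Microglia markers summed to 98.7 CPM in 3xTg-AD and 61.4 CPM in wildtype NK barcodes, with 9 and 8 of 10 genes detected and Trem2 at 0 in both. In ILC1-like barcodes they summed to 28.7 CPM in 3xTg-AD and 60.1 CPM in wildtype, with 3 and 9 of 10 detected. T cell markers summed to 163 CPM in 3xTg-AD and 147 CPM in wildtype NK barcodes, with 5 and 6 of 11 detected and Cd3e, Cd5, Cd6, Cd4 and Cd8b1 at 0 in both. In ILC1-like barcodes they summed to more, 252 CPM in 3xTg-AD and 215 CPM in wildtype, with 4 and 5 of 11 detected. Erythroid markers summed to 0.213 CPM in 3xTg-AD (1 UMI) and 17.2 CPM in wildtype NK barcodes (80 UMIs), with 1 and 5 of 5 detected, and to 0 and 18.4 CPM in ILC1-like barcodes. Neutrophil markers summed to 6.61 CPM in 3xTg-AD (31 UMIs) and 0.215 CPM in wildtype NK barcodes (1 UMI), with 4 and 1 of 6 detected, and to 4.42 and 3.34 CPM in ILC1-like barcodes. Their part in the results was not tested. With all barcodes holding any of 8 microglia markers left out, the Tigit ratio in NK barcodes was 0.579 (0.473 to 0.707) and the Cd160 ratio in ILC1-like barcodes 1.59 (1.21 to 2.10). Without barcodes with 10 or more UMIs of interferon genes, the Tigit ratio in NK barcodes was 0.657 (0.549 to 0.786).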

How the data were processed

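The deposited files hold UMI counts per gene and barcode, with no normalization by the authors, per the file headers, in 1 library for each genotype. Per the submitters' processing notes the tools were Cell Ranger 3.1.0 and STAR on mm10, although the file headers name software version 3.0.2. Which gene annotation was counted against is unstated in the sources used here. All 8 members matched GENCODE M21.

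Barcodes with under 300 genes (10 in 3xTg-AD, 45 in wildtype), over 10% mitochondrial UMIs (0 and 2) or a Scrublet doublet call (22 and 13) were left out. The libraries were clustered together with scanpy 1.11.5 (counts scaled to 10000, 2000 variable genes, 30 components, 15 neighbours, Leiden resolution 1.0) and no integration. Clusters kept out were microglia-like (28 and 6 barcodes) and low in UMIs (21 and 27). So were 1 and 4 barcodes with over 20% erythroid or neutrophil UMIs, and 15 and 17 T-like barcodes with a Cd3e UMI, rules set after seeing the data. Ratios and intervals were tested on simulated Poisson counts, the kind of count the intervals assume, and thinning was checked on the wildtype counts. With 1 library per group no test was made, and neither animals nor preparations enter an interval.

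The members, lists and markers were chosen with earlier results of these data known. The named genes are all members, the 3 genes most like each member with 100 or more UMIs, and up to 4 genes per list with the largest difference in NK barcodes. List genes named between the classes or in ILC1-like barcodes, the cluster, Gzmc and Tmem176 splits, and the leading genes of clusters were chosen after their values were seen. Cd226 is given without its position. The values of 1 listed transcription factor gene are not reported here, though its list's counts and medians include it.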

Additional observations from a re-analysis of the deposited data

Results flagged for a closer look

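Tigit, 3xTg-AD over wildtype, stood at a ratio of 0.620 (0.52 to 0.739) in NK barcodes and 1.0 (0.795 to 1.27) in ILC1-like barcodes, a difference between the classes that was not tested. Cd226 stood at 0.832 (0.677 to 1.02) in NK barcodes and at 1.23 (0.873 to 1.74) in ILC1-like barcodes, on opposite sides of 1, also untested. Among T-like barcodes, which enter no comparison above, Cd226 was at 125 CPM (54.1 to 247) in 15 3xTg-AD barcodes, from 8 UMIs, and at 39.1 CPM (4.74 to 141) in 17 wildtype barcodes, from 2 UMIs.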

How the results depend on the processing

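Of 473 alternative values under 15 processing settings and the changes of thinning, seed, fold and minimum, 435 stayed within the counting interval of the value reported (for counts, within 1.5 times), 33 moved outside it and 5 that had been at least 1.5-fold from 1 changed sides of it. Values nearer to 1 also crossed it. The cause was not tested. Thinned sums gave Cd160 in NK barcodes, 3xTg-AD over wildtype, 1.02, and in ILC1-like barcodes Cd226 0.835, Crtam 0.501 and Lag3 0.313; ILC1-like over NK they gave Cd96 0.90 in 3xTg-AD and Tigit 5.30 in wildtype. Taking ILC1-like from 5 UMIs gave Cd160 ILC1-like over NK 1.88 in wildtype. Taking it from thinned counts gave Tigit 0.60 in ILC1-like barcodes, 3xTg-AD over wildtype, and ILC1-like over NK 2.70 in 3xTg-AD and 3.25 in wildtype, with Cd160 3.02 in 3xTg-AD. Some alternatives were chosen after seeing the data. Without barcodes of the Cxcr6-led cluster under the limit, Tigit ILC1-like over NK was 8.41 in 3xTg-AD. Without clusters over 90% from 1 library, the ratio 3xTg-AD over wildtype in NK was 0.839 for Tigit and 0.878 for Cd160, and ILC1-like over NK in wildtype 5.81 and 1.80. Members called in NK were 0 under thinned sums, 5 UMIs, thinned counts, no clusters and without those clusters, and 2 with no minimum, where Havcr2 has 0 wildtype UMIs. Those called in ILC1-like barcodes were 0 under thinned sums and thinned counts, where Cd160 stayed at 1.65 and 1.53 but under 100 UMIs. ILC1-like over NK, 2 were called in either library under thinned sums, with Cd226 under 100 UMIs at 3.43 in 3xTg-AD and 3.21 in wildtype. Listed genes called in NK were 1 higher and 1 lower at 2-fold, and 4 lower from 50 UMIs. The Cd160 share ratio in NK was 1.45 thinned to 1000 UMIs, and the Crtam one in ILC1-like barcodes was 5.11 at 1000 UMIs, 1.17 unthinned and 0.313 at 1400. The Tigit ratio in NK ranged from 0.561 to 0.839 and the Cd160 ratio in ILC1-like barcodes from 1.53 to 2.29. No paired analysis was possible because each group has 1 library. Depth limits Crtam, Lag3, Havcr2 and Pdcd1, for which few UMIs were read.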

Other observations

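T-like barcodes carried Cd160 at 188 CPM (97.2 to 328) in 3xTg-AD and 254 CPM (135 to 435) in wildtype, from 12 UMIs in 15 barcodes and 13 UMIs in 17, and Cd96 at 62.7 CPM (17.1 to 160) and 117 CPM (43.1 to 255). Tigit had 1 UMI in T-like barcodes of each library, and Lag3, Havcr2 and Pdcd1 had 0. Ncr1 was found in 86.7% of 3xTg-AD and 47.1% of wildtype T-like barcodes, so these sums hold RNA of NK cells too. In the low-UMI cluster, Tigit had 1 UMI in 21 3xTg-AD barcodes and 14 UMIs in 27 wildtype barcodes, 7 of them in 1 barcode.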
